A study of Mus musculus with 96 samples.

Results

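This account concerns the GATA6 binding regions of the mouse genome that carry a strong SOX17 motif and no GATA6 motif. Members were the rows of the deposited table whose best SOX17 match was in the high score class, whose GATA6 class was none, and whose OCT:SOX and ESRRB classes were not high. They numbered 630 of 42403 regions. ChIP-seq, in which DNA bound by a protein is pulled down and sequenced, was done for GATA6, SOX17, OCT4, SOX2 and ESRRB, with input chromatin alongside. The cells were KH2 embryonic stem (ES) cells of the strain C57BL/6 x 129/Sv with a doxycycline (Dox)-inducible Gata6 cassette, from which GATA6-3×HA is made. Lines with this cassette were derived from picked clones, and all ES cell samples carry it, also those without Dox. They were taken without Dox (day 0) and at 8 h, 16 h, day 1, day 2 and day 4 of treatment with 1 µg/mL Dox. XEN cells, which represent the established primitive endoderm (PrE), were of another line (X10) and strain (CD1) and were grown with no Dox and no LIF, so that line and lineage cannot be told apart in their values. In a second experiment, cells of clone G6.3 received a pool of siRNAs against Oct4 or a non-targeting pool, were plated in Dox at once and were profiled for GATA6 and SOX17 at 48 h, with the transgene in both arms. ES cells were kept in serum with LIF, and cells were grown on mouse embryonic fibroblast feeders that were adsorbed out before fixation. OCT4 levels after knock-down were not analysed here. In these bulk samples, fewer cells with a bound region and less binding per cell cannot be told apart.

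GATA6 is a zinc finger transcription factor (TF) that recognizes GATA sequences and drives cells of the early embryo toward PrE. SOX17 belongs to the SOXF group of high mobility group (HMG) box TFs, is expressed in endoderm and binds in the minor groove at variants of the ATTGT core that it shares with SOX2 and other SOX proteins. OCT4 is a POU factor that pairs with SOX2 on a composite OCT:SOX element in ES cells, and ESRRB is an orphan nuclear receptor of the same pluripotency network. These 3 are called pluripotency TFs (PTFs) here.

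The sequences below are the best SOX17 match, in capitals, of members on which the results turn, with 10 bases on either side in lower case. They are read 5′ to 3′ on the strand of the match, from the mm10 sequence, and are named by the gene with the nearest annotated start, which need not be the gene a region acts on. The first 6 rose in GATA6 and SOX17 by day 4. The Kit region lies at chr5:75640402-75640968 (plus strand match), with its summit in an exon of Kit. The Gm24734 region lies between genes at chr11:89153418-89154513 (minus), the Zfp143 region in an intron at chr7:110087618-110088767 (plus), the Gm4651 region in an intron of Mical3 at chr6:121036505-121037429 (minus), the Osbpl7 region in an exon of Mrpl10 at chr11:97048251-97048742 (plus) and the Sox7 region between genes at chr14:63938184-63939115 (plus).
Kit: cgcgatggggATCATTGTGatggtgctca
Gm24734: cacagcatacCTCATTGTGgcctcggtgc
Zfp143: acacaatgatGTCATTGTGtactaataga
Gm4651: caaaagtatcTTCATTGTGttttctagag
Osbpl7: actgaggctgCCCATTGTCcttggtttca
Sox7: gctgaatgtcACCATTGTCatcatctgcc

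The next 4 were bound by PTFs before Dox and were lower in GATA6 at day 4. They lie at chr13:63568848-63569714 in an intron of Ptch1 (A930032L01Rik, minus), at chr19:7261304-7262027 between genes (Gm23997, minus), at chr15:25753770-25754794 in an intron of Myo10 (plus) and at chr1:118626226-118626755 between genes, close to the start of Tfcp2l1 (plus).
A930032L01Rik: acaggtcaggACCATTGTCtgggatgctg
Gm23997: tccagctaggGGCATTGTCttgattaaag
Myo10: attaaatgttTTCATTGTGaaggtggcct
Tfcp2l1: aaatggccttTGCATTGTCacacatccac

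All 10 printed matches hold CATTGT, in either set. Over the 630 members, the best match of 9 bases took 28 distinct forms. All members had ATTGT in it and 592 had CATTGT. The most frequent was GCCATTGTC, in 48 members (7.62%, beside 5.30% of the 8324 regions in the SOX17 high class), followed by GCCATTGTG in 43 and TCCATTGTC in 41. Scores ran from 11.1 to 12.8 with a median of 11.98, where the high class begins at 11.1. In 225 members there was 1 SOX17 match, in 226 there were 2, and in 179 there were more, up to 21. The composite OCT:SOX class was none in 238 members, low in 319 and mid in 73, and the ESRRB class was none in 459, low in 105 and mid in 66.

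The class none for GATA6 is a statement about a score, and shorter GATA letters remained. On either strand, GATA occurred in 89.5% of members and in 97.8% of all regions. The 6-letter forms AGATAA and TGATAA, both of which contain GATA, occurred in 12.4% and 21.6% of members and in 66.7% and 44.6% of all regions. Members were also narrower, with a median width of 405 bp beside 524 bp over all regions, so that a member has fewer positions at which letters can occur. A SOX core joined to part of an OCT4 site, ATTGT with ATGC directly after it, was found in 1 member (0.159%, all regions 0.519%), and the same letters with 1 base between them in 12 (1.90%, all regions 0.913%).

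Members lay mostly away from gene starts. A start site of a gene lay within 1 kb of 8.89% of members and 9.46% of all regions, while it did so for 23.4% of the 1381 regions with neither a GATA6 nor a SOX17 match (here the neither group, a comparison group chosen with the values known). The summit of GATA6 signal fell in an exon in 37 members, in an intron in 310 and between genes in 283. GC content had a median of 46.0% beside 45.2% over all regions, and the best match lay in repeat-masked bases in 14.9% of members and in 15.8% of all regions with a SOX17 match.

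The best SOX17 match was often close to the GATA6 summit. It lay within 50 bp of the summit in 274 members (43.5%), whereas on average 26.0% of a member's positions lie there. In the 1816 regions where both motifs were high, a group also chosen with the values known, these shares were 24.3% and 15.8%. The median distance was 63 bp in members and 131 bp in regions with both motifs, whose median width was 731 bp. Kit (158 bp), Sox7 (388 bp) and A930032L01Rik (300 bp) had their match far from the summit, and Gm24734 and Zfp143 at 13 bp.

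**Figure D1:**
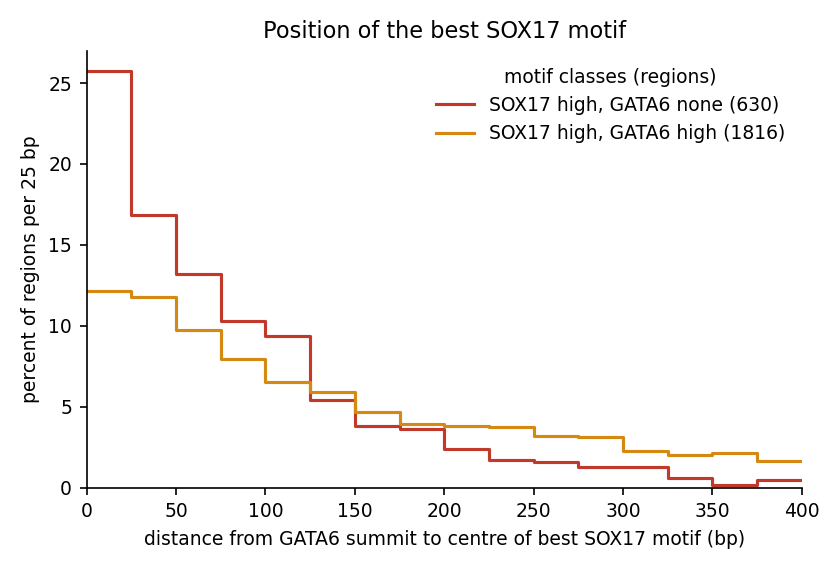
Percent of regions in steps of 25 bp against the distance in bp from the GATA6 summit to the centre of the best SOX17 match, for the 630 members and for the 1816 regions with both motifs high, shown up to 400 bp. The members' curve is higher near the summit, where 43.5% of them have their match within 50 bp, beside 24.3% of the other set.

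Values are given in RPM, the reads on a region scaled to a library of standard size, with the replicates of a condition merged by the authors. In 36 of 45 columns the pooled values could be taken apart into 2 libraries. The depth of these ran from 5.42 M to 69.4 M reads with a median of 15.3 M. The day 0 columns of SOX17, OCT4, SOX2, ESRRB and input were not among the 36, so changes from day 0 could not be checked by library. Because the libraries cannot be tied to the replicate numbers of the labels, they are called the deeper and the shallower library. At the median, input chromatin gave members 0.342 RPM at 8 h and 0.424 RPM at day 4, which is the background beside the values below. The shallower SOX17 library of the Oct4 siRNA arm stood apart from the other 3 of that experiment. Its median over all regions was 1.67 RPM, where the others held between 0.795 and 0.904 RPM. The median change that uses this library is given with and without it. By the study's methods, chromatin was prepared 2 times for most conditions, with 1 library for GATA6 before Dox and for OCT4 in XEN cells. Whether the cultures were separate is not stated in the sources used here, so tests measure the spread between libraries, which may be technical.

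GATA6 signal at members was low early and higher by day 4. The median member held 0.490 RPM of GATA6 before Dox, 0.786 RPM at 8 h, 0.755 RPM at 16 h, 0.852 RPM after 1 day, 0.838 RPM after 2 days and 1.10 RPM after 4 days, with 1.24 RPM in XEN cells. Over all regions the medians were 0.490, 1.49, 1.45, 1.29, 1.13, 1.29 and 1.34 RPM in this order. From day 0 to 8 h, GATA6 at least doubled in 276 members (43.8%, beside 61.1% of all regions) and fell by that factor in 33 (5.24%, beside 2.08%). The value before Dox comes from 1 library of 6.12 M reads, in which 0.490 RPM is worth 3 reads, so these counts have no replicate check at that end. From day 4 to XEN cells, 124 members were at least a doubling higher (19.7%, beside 14.8%) and 101 lower by that factor (16.0%, beside 12.3%). In the library pairs, the members' median was 0.742 and 0.785 RPM at 8 h and 1.05 and 1.15 RPM at day 4, and these do not overlap. The column for day 4 has 3 labelled libraries and was resolved into 2. Per kb of width, the members' GATA6 level was 1.91 RPM at 8 h beside 3.27 over all regions, and 2.92 beside 2.69 at day 4, so that their place below all regions at 8 h was gone by day 4.

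From 8 h to day 4, the median change of a member's GATA6 signal was 0.59 on the log2(RPM + pseudocount) scale, with a pseudocount of 0.168 RPM, while over all regions it was -0.02. At least a doubling was seen in 259 members (41.1%, beside 31.4% of all regions) and a drop of the same size in 167 (26.5%, beside 35.1%). In the libraries taken apart, an alternative added after seeing the data, edgeR's quasi-likelihood test with Benjamini-Hochberg adjustment found GATA6 higher at day 4 in 305 members (48.4%, beside 38.0% of all regions) and lower in 188 (29.8%, beside 40.0%). With limma on log2 values, these were 278 (44.1%, beside 35.2%) and 181 (28.7%, beside 38.7%). In the neither group, GATA6 was higher in 46.6% and lower in 26.8% by edgeR, and in regions with both motifs in 38.8% and 38.5%. Both day 4 libraries exceeded both 8 h libraries in 332 members (52.7%, beside 43.2%), and the reverse held in 210 (33.3%, beside 45.1%). Leaving out the deeper 8 h library lowered the number of members called higher to 217 (34.4%, beside 27.7%).

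SOX17 signal at members began below that of all regions and ended above it. The members' median was 0.485 RPM before Dox, 0.4998 RPM at 8 h, 0.872 RPM after 1 day, 1.03 RPM after 2 days and 1.37 RPM after 4 days, with 1.20 RPM in XEN cells. All regions held 0.545, 0.544, 0.888, 0.947, 1.10 and 0.849 RPM in this order. The pairs of libraries gave the members 0.449 and 0.476 RPM at 8 h, 0.852 and 0.920 RPM after 1 day, 1.35 and 1.41 RPM after 4 days, and 1.18 and 1.20 RPM in XEN cells. Those at 8 h and day 4 are well apart, and at day 4 both members' medians lie above the 1.06 RPM that both libraries gave over all regions. Per kb, the members' SOX17 level at day 4 was 3.58 RPM beside 2.21 over all regions, 2.54 in the neither group and 3.12 in regions with both motifs. It was 3.84 and 3.802 with a high SOX17 and a low or mid GATA6 motif, and 3.86 with a mid SOX17 and no GATA6 motif, so the members' level was not the highest among these classes.

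The median SOX17 change of a member from day 0 to day 4 was 1.28 on the log2 scale (all regions 0.80), with at least a doubling in 359 members (57.0%, beside 44.8%) and a drop of that size in 72 (11.4%, beside 8.97%). Counted from 8 h, these were 358 (56.8%, beside 44.8%) and 52 (8.25%, beside 7.50%), and from day 4 to XEN cells 65 (10.3%, beside 6.37%) and 146 (23.2%, beside 17.2%). Between 8 h and day 4, edgeR found SOX17 higher in 367 members (58.3%, beside 46.7%) and lower in 53 (8.41%, beside 8.08%). The neither group had 40.8% higher and regions with both motifs 59.6%. Without the shallower 8 h library 26 members were lower (4.13%, beside 4.42%), and without the deeper day 4 library 35 (5.56%, beside 5.32%). Both day 4 libraries exceeded both 8 h libraries in 423 members (67.1%, beside 58.2%), and the reverse held in 97 (15.4%, beside 18.2%). The median SOX17 difference over all regions was 1.03 in this fit, and scaling that removes this common shift changes the split. With TMM, 229 members were higher and 116 lower (all regions 26.2% and 23.6%), and with DESeq2 168 and 88 (all regions 18.7% and 14.4%). Under these scalings too the members' share called higher was above that over all regions.

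**Figure D2:**
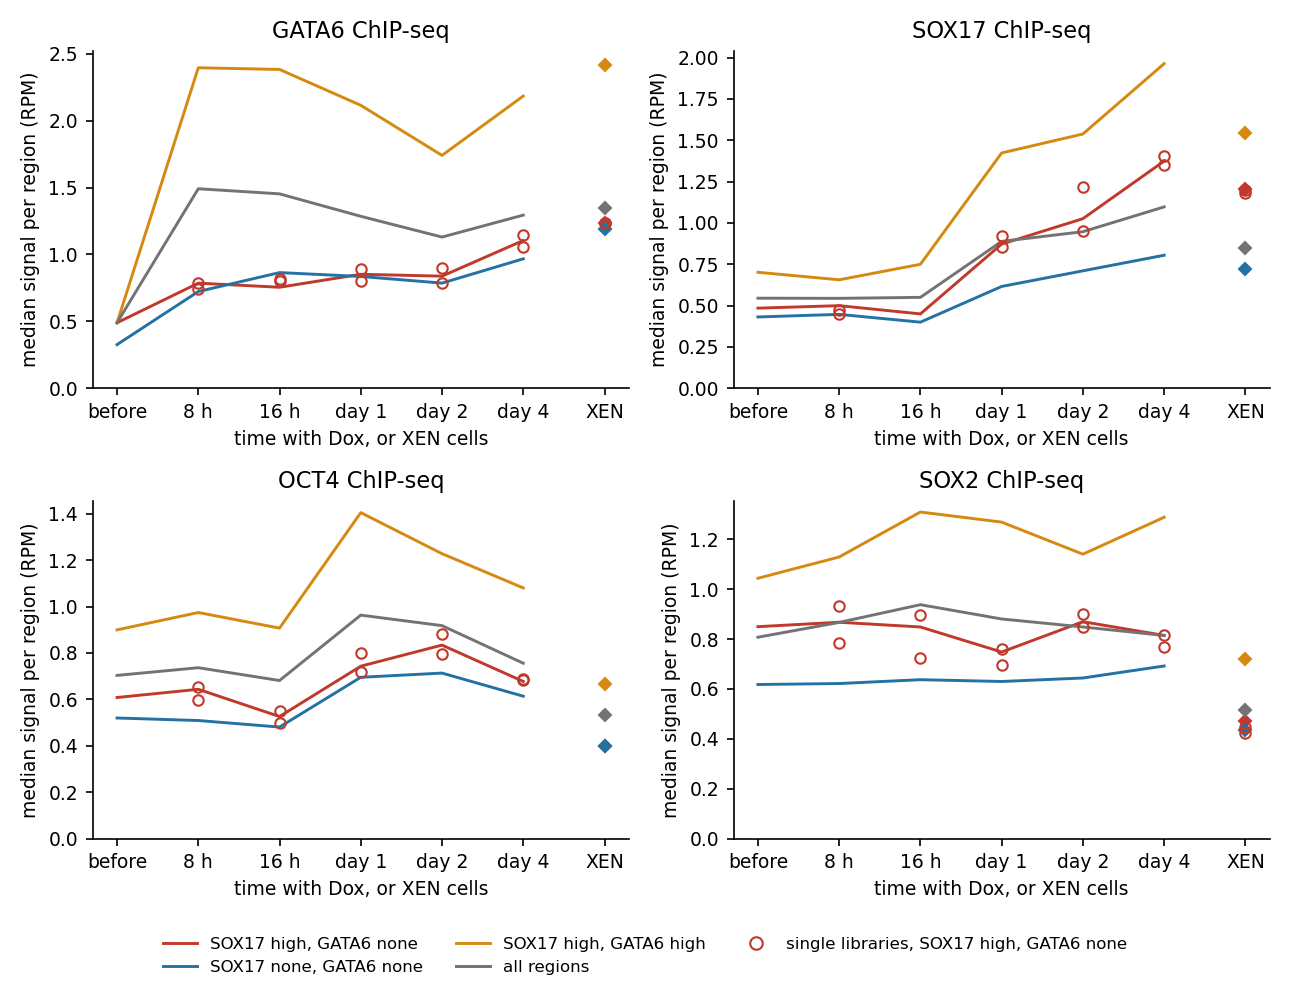
Median RPM per region of GATA6, SOX17, OCT4 and SOX2 ChIP-seq against time in Dox (categories, not to scale) and in XEN cells, for members, the neither group, regions with both motifs and all regions. Lines join the time points, diamonds stand for XEN cells, and open circles for the members' median in single libraries. Members start low in GATA6 (0.786 RPM at 8 h, all regions 1.49) and pass all regions in SOX17 by day 4 (1.37 against 1.10).

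Where both GATA6 and SOX17 changed, they mostly changed in the same direction. By edgeR, 278 members (44.1%) were higher in both at day 4 than at 8 h, 53 (8.41%) were lower in both, 122 (19.4%) were lower in GATA6 with no call in SOX17, 13 (2.06%) were lower in GATA6 and higher in SOX17, and none was higher in GATA6 and lower in SOX17. Over all regions, these shares were 32.3%, 8.02%, 28.4% and 3.495%, and 4 regions were higher in GATA6 and lower in SOX17. These comparisons use different libraries for each factor and the same regions.

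**Figure D3:**
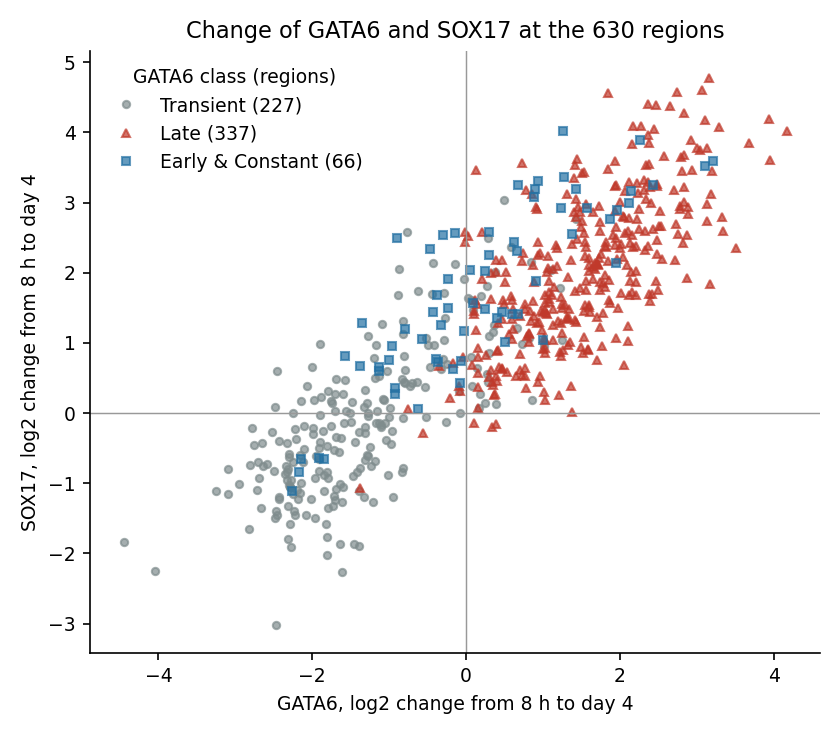
Log2 change of SOX17 (vertical) against that of GATA6 (horizontal) from 8 h to day 4, on pooled RPM with a pseudocount, with 1 mark for each of the 630 members and colors and symbols for the authors' GATA6 class. The classes were built from GATA6 signal, which sets the 337 Late members mostly to the right and the 227 Transient ones mostly to the left. Along the vertical axis 488 of 630 members lie above 0 (77.5%, beside 70.7% of all regions). By edgeR, 41 of the Transient members were higher in SOX17 (18.1%, beside 9.54% of all Transient regions) and 51 lower (22.5%, beside 19.7%).

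The authors sorted regions by GATA6 kinetics into Early&Constant, Late and Transient, and by SOX17 peaks into bound and not bound. Late members were 337 (53.5%, all regions 33.6%), Transient 227 (36.0%, all regions 38.4%) and Early&Constant 66 (10.5%, all regions 28.0%). The Late share was 50.5% in the neither group and 25.1% in regions with both motifs. SOX17-bound members were 388 (61.6%, all regions 44.5%), beside 60.3% of regions with both motifs and 31.8% of the neither group. In every GATA6 class the SOX17-bound share of members was above that of all regions: 83.3% beside 72.6% in Early&Constant, 69.4% beside 53.4% in Late and 43.6% beside 16.2% in Transient. Classes carry no error of their own.

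Across the 16 combinations of SOX17 and GATA6 motif classes, counted without regions of high OCT:SOX or ESRRB class, the SOX17-bound share ran from 22.0% to 65.9% and, where no GATA6 motif was present, was 31.8% for the SOX17 class none, 46.9% for low, 59.0% for mid and 61.6% for high. Along the row of high SOX17 motifs, GATA6 signal at 8 h was 1.91 RPM per kb in members, 1.80 with a low and 2.58 with a mid GATA6 motif, and 3.60 where both motifs were high. The Late share along this row was 53.5% in members, then 49.4%, 38.0% and 25.1%. In this grid the neighbor of the members with a mid SOX17 motif had 59.0%, 1.75 RPM per kb and 54.1% in these values. At the edge of the score class itself, the 218 members just inside it had a median SOX17 signal of 1.14 RPM at day 4 and a Late share of 49.1%, and the 159 regions just outside it had 1.14 RPM and 52.8%. At the GATA6 edge, the 233 regions with a high SOX17 motif and the lowest GATA6 scores had 0.637 RPM of GATA6 at 8 h, 1.67 RPM of SOX17 at day 4 and a Late share of 57.9%, where members had 0.786 RPM, 1.37 RPM and 53.5%.

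**Figure D4:**
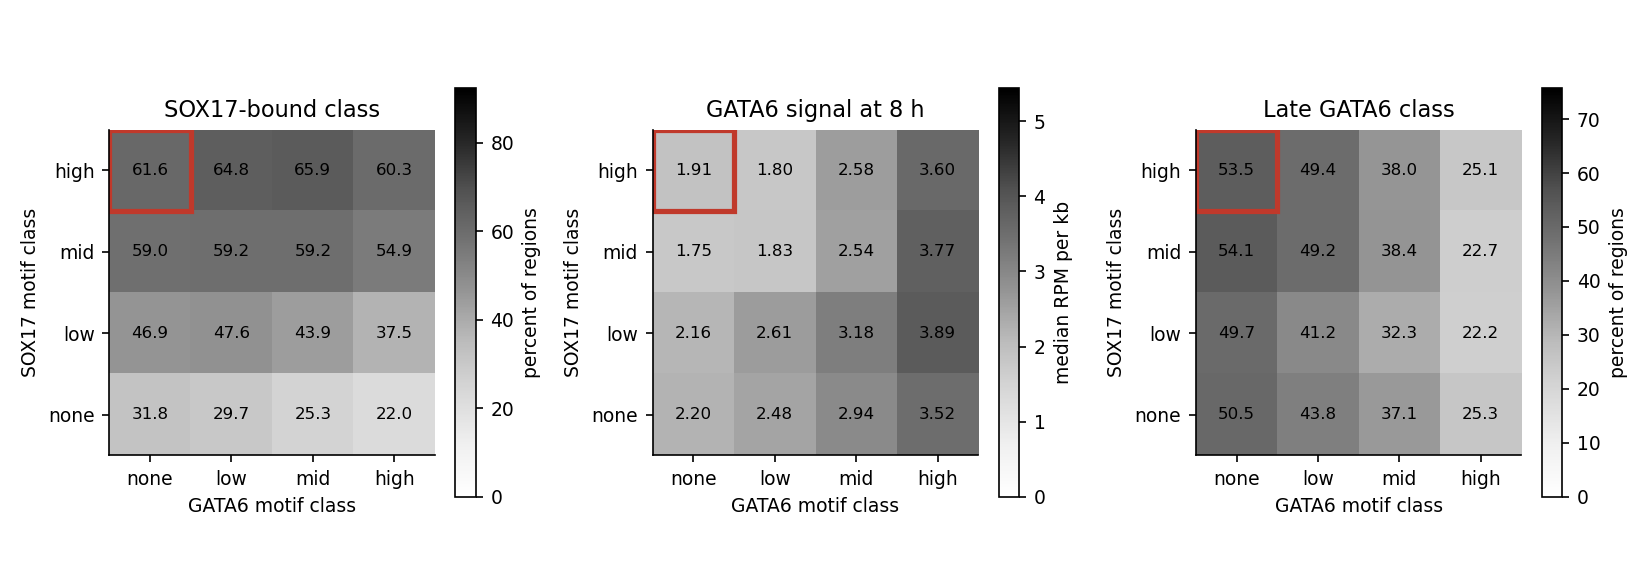
Each panel shows the 16 combinations of the SOX17 motif class (vertical) and the GATA6 motif class (horizontal), with the SOX17-bound share in percent, the median GATA6 signal at 8 h in RPM per kb, and the share of the Late class in percent. The boxed cell holds the members, at 61.6%, 1.91 RPM per kb and 53.5%.

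Before differentiation, members were spread over open and closed chromatin. By the authors' class in undifferentiated cells, 300 members (47.6%) were closed, 222 (35.2%) moderately accessible and 108 (17.1%) accessible. All regions had 61.3%, 31.2% and 7.43% in this order. The neither group was more open still, with 40.9% closed and 22.7% accessible, while regions with both motifs had 75.2% and 2.04%. With no GATA6 motif and a low or mid SOX17 motif, 45.1% and 50.3% were closed, so the members' share was not particular to them. Histone states placed 121 members in facultative heterochromatin (19.2%, all regions 22.3%), 116 each in poised and primed enhancers (18.4%, all regions 14.6% and 16.9%), 91 in constitutive heterochromatin (14.4%, all regions 10.2%), 86 in active enhancers (13.7%, all regions 11.2%), 51 in naive chromatin (8.10%, all regions 17.996%) and 49 in promoters (7.78%, all regions 6.88%). Closed members were Late in 76.3% of cases (all closed regions 44.6%) and accessible ones in 26.9% (all accessible regions 17.1%). Of the Late members 68.0% were closed (all Late regions 81.4%), and of the Transient members 18.9% (all Transient regions 41.1%).

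The kinetic and SOX17 classes were combined, a split added after seeing the data. The kinetic classes were built from GATA6 signal and the SOX17 class from SOX17 peaks of this series. The GATA6 courses below thus follow from class membership, and the SOX17 levels are not independent of it. No values over all regions are set beside them. The 234 Late members bound by SOX17 had a median SOX17 signal of 0.374 RPM before Dox, 0.860 RPM after 1 day, 1.22 RPM after 2 days and 3.23 RPM after 4 days, with 2.38 RPM in XEN cells. GATA6 there was 0.384 RPM at 8 h, 1.84 RPM at day 4 and 2.09 RPM in XEN cells, and SOX2 was 0.429 RPM before Dox and 1.42 RPM at day 4. Their best SOX17 match had a median distance of 49 bp from the summit. The 99 Transient members bound by SOX17 already held 1.19 RPM in the SOX17 ChIP before Dox, then 2.47 RPM after 1 day, 2.72 RPM after 2 days and 1.12 RPM after 4 days, with 0.567 RPM in XEN cells, while GATA6 was 2.03 RPM at 8 h and 0.842 RPM at day 4. Here SOX2 had a median of 2.89 RPM before Dox and 0.655 at day 4, and OCT4 one of 1.67 RPM before Dox and 2.02 at day 2. Between day 0 and day 4 the SOX2 median was higher in the Late and lower in the Transient group. What SOX2 contributes to the SOX17 values before Dox was not tested.

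The remaining members were 128 Transient and 103 Late regions outside the SOX17 class, 55 Early&Constant regions within it and 11 outside it. The 128 had OCT4 (1.34 RPM) and SOX2 (1.80 RPM) before Dox and a SOX17 median of at most 0.714 RPM before Dox and at days 1, 2 and 4. In the 103, SOX17 was 0.781 RPM at day 4 and 1.49 in XEN cells, and GATA6 0.648 and 1.77. The 55 had the highest SOX17 levels of these 6 groups at day 1 and at day 4, with a SOX17 median of 2.88 RPM at day 1 and 4.07 at day 4 and a GATA6 median of 2.07 at 8 h and 2.69 at day 4.

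PTF binding before Dox was called by the authors at 178 members (28.3%, all regions 20.8%), ectopic PTF binding during differentiation at 87 (13.8%, all regions 16.6%) and none at 365 (57.9%, all regions 62.6%). These classes were built from PTF peaks of this series. The OCT4 and SOX2 levels below thus follow from class membership, and no levels over all regions are set beside them. The 178 had a median OCT4 signal of 2.29 RPM before Dox, 2.03 at day 2 and 0.705 at day 4, with SOX2 at 3.47 before Dox and 0.567 at day 4. At the 87, OCT4 went from 0.715 RPM before Dox to 2.02 at day 2 and 1.68 at day 4, and SOX17 from 0.587 to 3.04 and 2.99. Of these 87, 92.0% were in the SOX17-bound class, beside 78.4% of all regions with ectopic PTF binding. The 365 held 0.350 RPM of OCT4 before Dox, a level close to input, and 74.5% of them were Late, beside 47.3% of all regions without PTF binding.

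Over all members, OCT4 had a median change of 0.22 on the log2 scale from day 0 to day 2 (all regions 0.23), with at least a doubling in 86 (13.7%, beside 14.6%) and a drop of that size in 27 (4.29%, beside 4.86%). To day 4 it doubled or more in 141 (22.4%, beside 21.0%) and dropped in 147 (23.3%, beside 19.4%). SOX2 had a median change of 0.18 from day 0 to day 4 (all regions 0.10), with 156 up (24.8%, beside 24.0%) and 183 down (29.0%, beside 24.1%). From 8 h to day 4, these were 153 (24.3%, beside 24.2%) and 192 (30.5%, beside 27.6%). ESRRB had a median of -0.37 from day 0 to day 4 (all regions -0.40), with 3 up (0.476%, beside 0.248%) and 177 down (28.1%, beside 25.2%). Input at the same times had 8 up (1.27%, beside 1.08%) and 1 down (0.159%, beside 0.790%). From 8 h to day 2, pooled OCT4 at least doubled in 88 (14.0%, beside 16.8%) and dropped in 67 (10.6%, beside 10.2%). Over this span edgeR found OCT4 higher in 93 of 629 members tested (14.8%, beside 16.9% of all regions) and lower in 72 (11.4%, beside 11.3%), shares near the background. The counts fell when a library was left out. Without the deeper 8 h library they were 39 (6.20%, beside 7.24%) and 18 (2.86%, beside 4.40%), and without the shallower one 45 (7.15%, beside 7.94%) and 44 (6.995%, beside 6.56%). Without the deeper day 2 library they were 69 (10.97%, beside 13.3%) and 36 (5.72%, beside 5.39%), and without the shallower one 50 (7.95%, beside 9.02%) and 28 (4.45%, beside 5.80%). With DESeq2 they were 43 (6.84%, beside 6.82%) and 64 (10.2%, beside 10.3%).

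An OCT:SOX motif of the mid class, present in 73 members, came with a different course. These had a GATA6 median of 1.67 RPM at 8 h and 0.716 at day 4 and were Late in 27.4% of cases, where the 238 members with no OCT:SOX match had 0.546 and 1.18 RPM and were Late in 66.4%. OCT4 before Dox was 1.75 and 0.405 RPM in these groups. The 56 members within 1 kb of a start had a SOX17 median of 3.37 RPM at day 4 and the other 574 one of 1.28 RPM, and their GATA6 medians were 2.25 and 1.02 RPM. Members with AGATAA or TGATAA (198) and without (432) had GATA6 medians of 1.25 and 1.05 RPM and SOX17 medians of 1.16 and 1.46 RPM at day 4. The splits in this paragraph are of members only and not scaled by width, with no values over all regions beside them.

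The Oct4 knock-down addressed whether binding of GATA6 and SOX17 depends on OCT4. At members, the median GATA6 signal was 0.803 and 0.994 RPM in the control libraries and 1.02 and 1.39 RPM in the Oct4 siRNA libraries, which do not overlap. Over all regions the pairs were 1.45 and 1.81, and 1.49 and 1.89, and overlap. The median change of a member was 0.19 on the log2 scale, beside -0.00 over all regions, with at least a doubling in 99 members (15.7%, beside 8.19%) and a drop of that size in 26 (4.13%, beside 5.65%). By library, 229 members had both Oct4 siRNA values above both controls (36.3%, beside 25.6%) and 124 both below (19.7%, beside 26.4%). Setting the deeper Oct4 siRNA library against the shallower control turned the members' median to -0.13, with all regions at -0.29.

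The edgeR test found GATA6 higher upon Oct4 knock-down in 73 members (11.6%, beside 6.06% of all regions) and lower in 20 (3.17%, beside 3.66%). With limma, these were 71 (11.3%, beside 6.17%) and 23 (3.65%, beside 4.08%). Of the 73, 68 were Late, which is 20.2% of Late members, and in all Late regions the share was 16.2%. The neither group had 4.20% higher. The median difference in the edgeR fit was 0.22 in members and -0.025 over all regions, and it moved with the libraries. Without the deeper control library it was 0.08 in members and -0.17 over all regions, and without the shallower control 0.41 and 0.16. Without the shallower Oct4 siRNA library it was 0.0087 and -0.18, and without the deeper one 0.40 and 0.14. Each of these fits called fewer members higher than the full fit, as over all regions.

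The SOX17 values upon Oct4 knock-down include the library that stands apart. The members' median was 0.879 and 0.877 RPM in the controls, 1.05 RPM in the deeper Oct4 siRNA library and 2.002 RPM in the shallower one. The pooled change had a median of 0.58 beside 0.53 over all regions. In the edgeR fit without the library that stands apart, the median difference was 0.13 in members and 0.12 over all regions. The pooled values, which hold it, showed at least a doubling in 180 members (28.6%, beside 21.2%) and a drop in 8 (1.27%, beside 0.465%). By edgeR, SOX17 was higher in 24 members (3.81%, beside 1.87%) and lower in 0 (beside 0.00236%). In this fit 148 of 630 members and 6846 of 42403 regions had an unadjusted edgeR p under 0.05. With limma, 26 (4.13%, beside 2.08%) were higher and 0 lower. TMM gave 70 each (11.1%, beside 8.02% higher and 6.73% lower), and DESeq2 33 (5.24%, beside 2.95%) and 31 (4.92%, beside 2.48%). All 24 were Late, as were 697 of the 791 regions called higher in all. Without the deeper Oct4 siRNA library, the median edgeR difference was 1.08 in members and 0.997 over all regions. It was 0.72 and 0.62 without the deeper control, and 0.66 and 0.65 without the shallower control. The number of members called changed with each library left out. By library, 272 members had both Oct4 siRNA values above both controls (43.2%, beside 43.7%) and 49 both below (7.78%, beside 5.22%), so the share above was near the background.

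**Figure D5:**
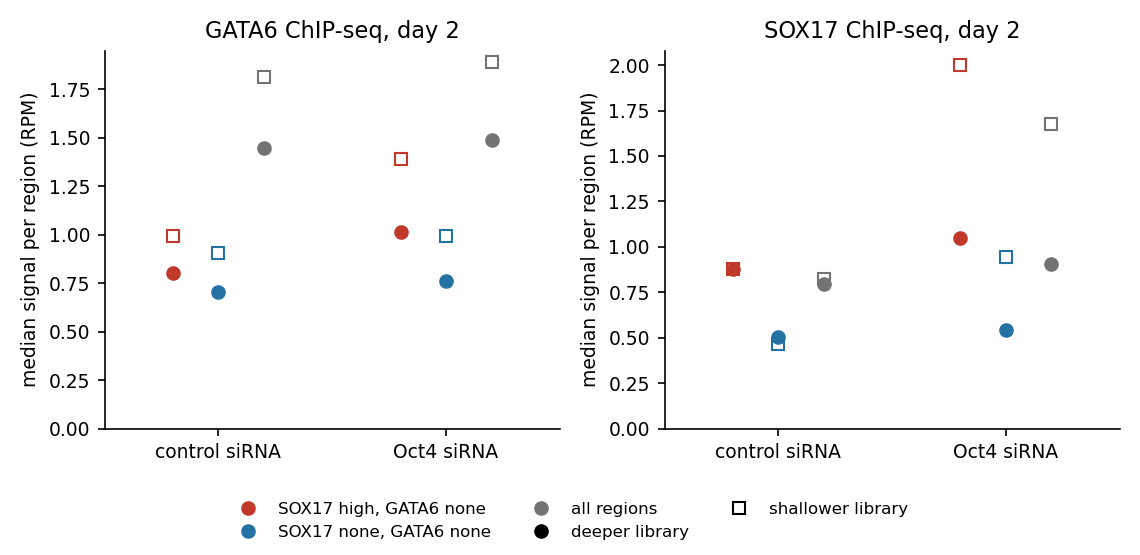
Median RPM per region of GATA6 (left) and SOX17 (right) at 48 h in control and Oct4 siRNA cells, for members, the neither group and all regions, with filled circles for the deeper and open squares for the shallower library. In GATA6 the members' marks at 1.02 and 1.39 RPM lie above both controls, and in SOX17 the open squares of the Oct4 siRNA arm lie above the other marks of their color.

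The regions below were chosen as the members highest in 1 of these signals, or by motif score or gene list, so the values that chose them are a description and get no test. For each region, values are given as the deeper and then the shallower library, followed, for some of the comparisons that those values did not enter, by the difference on the log2(RPM + pseudocount) scale ± SE and the Benjamini-Hochberg adjusted p over all regions from limma, with 2 libraries in each group. The Kit region, among the highest in SOX17 at day 4, is in the gene of a receptor tyrosine kinase of stem and germ cells. It held 0.418 and 0.524 RPM of GATA6 at 8 h, 5.82 and 4.84 RPM at day 4 and 6.06 and 6.03 RPM in XEN cells. SOX17 there was 0.822 and 0.476 RPM at 8 h, 13.8 and 15.9 RPM at day 4 and 12.05 and 10.01 RPM in XEN cells. The GATA6 pairs do not overlap between 8 h and day 4, with a difference of 3.10 ± 0.418 (limma adjusted p = 6.3e-07). Upon Oct4 knock-down, GATA6 at the Kit region was 1.41 and 2.07 RPM in controls and 5.37 and 7.36 RPM with Oct4 siRNA, a difference of 1.78 ± 0.357 (limma adjusted p = 9.5e-05). SOX17 was 2.85 and 3.30 RPM, and 9.18 and 22.4 RPM, the higher one in the library that stands apart. SOX2 there was 0.850 and 1.38 RPM at 8 h and 6.69 and 5.21 RPM at day 4. The region holds AGATAA in spite of its GATA6 class none.

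The Gm24734 region, whose nearest start is annotated to a miscellaneous RNA gene, had the highest SOX17 signal of all members at day 4. It gave 25.3 and 21.7 RPM at day 4 and 0.897 and 1.19 RPM at 8 h. Input there was 1.08 RPM before Dox and 1.98 RPM at day 4. Its GATA6 values were 0.864 and 1.22 RPM at 8 h, 8.26 and 8.57 RPM at day 4, 2.70 and 3.46 RPM with control siRNA and 6.82 and 10.05 RPM with Oct4 siRNA.

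At the Gm4651 region within Mical3, a gene of a flavoprotein that acts on actin, GATA6 in XEN cells was the highest of the members, at 29.3 and 21.5 RPM. It held 0.331 and 0.524 RPM at 8 h and 11.3 and 6.62 RPM at day 4. SOX17 gave 0.449 and 0.476 RPM at 8 h, 10.6 and 12.7 RPM at day 4 and 22.0 and 24.7 RPM in XEN cells. With Oct4 siRNA, GATA6 was 6.89 and 9.95 RPM beside 1.80 and 1.94 RPM in controls (2.05 ± 0.348, limma adjusted p = 1.9e-06), values that do not overlap.

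The Zfp143 region lies in an intron of a zinc finger TF gene and had the most GATA6 at day 4. Both libraries held 14.2 and 13.6 RPM then, 0.533 and 0.698 RPM at 8 h and 19.4 and 16.8 RPM in XEN cells. SOX17 was 0.374 and 0.833 RPM at 8 h and 13.9 and 11.2 RPM at day 4. SOX2 was 0.642 RPM before Dox in the pooled column and 9.67 and 10.6 RPM at day 4. The Osbpl7 region, which is 1 of 39 members with the top-scoring match CCCATTGTC, had SOX17 at 0.523 and 0.833 RPM at 8 h and 16.3 and 12.4 RPM at day 4, and GATA6 at 0.446 and 0.436 RPM and at 5.71 and 5.86 RPM. The Ntn5 region, near the gene of a netrin, had SOX17 at 0.374 and 0.476 RPM at 8 h and 17.9 and 11.3 RPM at day 4.

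A pair of regions chosen by high SOX17 at day 4 held less SOX17 in XEN cells than at day 4. The members' median SOX17 signal in XEN cells, for comparison, was 1.20 RPM. The Kat7 region (chr11:95301721-95302445), in an intron of a histone acetyltransferase gene, had SOX17 at 16.9 and 14.2 RPM at day 4 and 1.58 and 1.71 RPM in XEN cells, with GATA6 at 9.26 and 11.8 RPM and at 2.87 and 3.98 RPM. The Dram1 region (chr10:88349730-88350611), in an intron of an autophagy regulator gene, had SOX17 at 17.1 and 13.4 RPM and at 1.91 and 1.11 RPM. OCT4 was present there, at 4.48 and 5.46 RPM at day 2, and at the Kat7 region at 2.60 and 2.76 RPM. GATA6 upon Oct4 knock-down was 14.4 and 21.8 RPM in controls and 15.8 and 21.8 RPM with Oct4 siRNA at the Kat7 region (0.07 ± 0.324, limma adjusted p = 0.93), and at the Dram1 region the difference was -0.18 ± 0.337 (limma adjusted p = 0.80). Neither passed the threshold.

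The regions named next, chosen by high GATA6 at 8 h or high OCT4 before Dox, were lower in GATA6 at day 4 than at 8 h. For A930032L01Rik and Gm23997 the fall starts from the GATA6 value that chose them. The A930032L01Rik region in Ptch1, the gene of the Hedgehog receptor, had the most GATA6 of the members at 8 h, 21.6 and 18.6 RPM, and 0.665 and 0.849 RPM at day 4. OCT4 was 12.2 and 11.6 RPM at 8 h and 2.39 and 3.52 RPM at day 2. SOX17 was 1.42 and 3.10 RPM at 8 h and 0.647 and 0.352 RPM at day 4. The Gm23997 region had GATA6 at 17.1 and 11.9 RPM and at 0.499 and 0.934 RPM, and the Myo10 region, in the gene of a filopodial myosin, at 7.50 and 7.68 RPM and at 1.61 and 1.27 RPM. Myo10 had the highest OCT4 value before Dox, 15.9 RPM in the pooled column, and SOX2 there was 18.5 RPM before Dox and 1.04 RPM at day 4.

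The Mir290a region (chr7:3206198-3207383), upstream of the miR-290 cluster of ES cell microRNAs, was among the members highest in GATA6 at 8 h and held both factors at day 4. GATA6 was 16.6 and 15.7 RPM at 8 h and 3.60 and 7.05 RPM at day 4, and SOX17 was 3.81 and 5.36 RPM and then 8.53 and 7.88 RPM (0.83 ± 0.337, limma adjusted p = 0.027). Over all regions, the median SOX17 difference in this fit was 0.80. The Mir290a region also holds AGATAA.

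Of the 45 regions whose nearest start belongs to a list of 10 PrE regulator genes, 2 were members (0.317% of members, beside 0.106% of all regions), and of 55 regions at 14 pluripotency regulators 1 was (0.159%, beside 0.1297%). No member was among 82 regions at 12 genes of endoderm matrix and endocytosis (0.193% of all regions) or 29 regions at 12 genes of yolk sac secretion (0.0684%). The Sox7 region, near the gene of another SOXF factor, had GATA6 at 0.965 and 0.698 RPM at 8 h and 4.27 and 6.11 RPM at day 4 (2.41 ± 0.339, limma adjusted p = 1.1e-06), and SOX17 at 0.748 and 0.357 RPM and at 4.64 and 4.01 RPM (2.67 ± 0.373, limma adjusted p = 5.8e-11). OCT4 there was 0.458 and 0.669 RPM at 8 h and 2.54 and 3.76 RPM at day 2 (2.17 ± 0.339, limma adjusted p = 5.4e-05). The Foxa2 region (chr2:148029170-148029589), in an intron of a noncoding gene near this forkhead TF, had GATA6 at 2.15 and 2.09 RPM at 8 h and 0.277 and 0.424 RPM at day 4, and SOX17 at no more than 0.563 RPM in any of the libraries at 8 h, at day 4 and in XEN cells. The Tfcp2l1 region, near the gene of a naive pluripotency TF, had GATA6 at 1.93 and 2.09 RPM at 8 h and 0.499 and 1.02 RPM at day 4 (-1.29 ± 0.394, limma adjusted p = 0.0049), while its SOX17 values of 1.05 and 1.31 RPM and of 0.470 and 0.774 RPM did not differ past the threshold (-0.78 ± 0.396, limma adjusted p = 0.083).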

How the data were processed

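Members and lists were chosen with earlier results of these data known. Per the labels and the study's methods, the authors demultiplexed reads with bcl2fastq, trimmed them with cutadapt, aligned them to mm10 with Bowtie2 and SAMtools, removed duplicates by molecular identifiers and called peaks with MACS2 on merged replicates. The authors deposited the signal in RPM (reads per region scaled by library size), with 1 value per condition. The motif scores were computed by the authors with FIMO, and the classes for motifs, GATA6 kinetics, SOX17, PTFs, accessibility and histone state are used as deposited. A deposited column with the authors' own outcome for Oct4 knock-down was not used, nor were 14 further columns of values per sample.

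Low RPM values are sums of whole multiples of 1 read per library. In 36 of 45 columns this gave 2 libraries each, at least 99.3% of values being split, with 5.42 M to 69.4 M reads (median 15.3 M). The smallest values look like 1 read added per library, which is uncertain, and 96 labelled libraries are not all resolved. Pooled changes are differences of log2(RPM + pseudocount), the pseudocount being percentile 5 of the target's values (GATA6 0.168, SOX17 0.182, OCT4 0.167, SOX2 0.195, ESRRB 0.164, input 0.158). Libraries were compared with edgeR 4.0.16 (quasi-likelihood), limma 3.58.1 and DESeq2 1.42.0 in R 4.3.3, each over all regions, Benjamini-Hochberg adjusted at 0.05. The tests on libraries, the comparison groups and the combined classes were added after seeing the data. Other steps used Python 3.11.15, numpy 2.4.6 and pandas 2.3.3. Sequence came from the RefSeq mm10 genome and gene positions from GENCODE M21. Region coordinates are as deposited. Named regions were the members highest in SOX17 at day 4, in GATA6 at 8 h, at day 4 and in XEN cells, in OCT4 before Dox and at day 2 and in SOX17 score (3 to 5 each), and up to 3 per gene list, passing over chromosome 18. Not all are described. Statistical steps were tested on simulated data.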

Additional observations from a re-analysis of the deposited data

How the results depend on the processing

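No paired analysis was possible because the columns pool the replicates and the libraries recovered from them carry no replicate number. With the OCT:SOX and ESRRB classes restricted to none (181 regions), the share of Late members was 67.4%, of closed 53.0% and of SOX17-bound 66.9%, and the median changes were 1.06 for GATA6 from 8 h to day 4 and 1.59 for SOX17 from day 0 to day 4. With mid SOX17 and low GATA6 motifs admitted (5954 regions), 58.7% were closed and the GATA6 change was 0.84. Among members between 368 and 777 bp wide (315), 46.0% were Late, 41.9% were closed and the GATA6 change was 0.36. With a pseudocount 10 times larger or smaller, the GATA6 change was 0.20 or 0.70 and the SOX17 change 0.48 or 1.57, and with input subtracted they were 0.69 and 2.01. From the shallower 8 h to the deeper day 4 library the GATA6 change was 0.48 (all regions -0.14). In the same kind of pairing, the GATA6 change upon Oct4 knock-down reversed to -0.13, with all regions at -0.29. The other pairings gave members 0.20, 0.47 and 0.20, beside 0.0010, 0.29 and -0.0075 over all regions. The members' median lay above that over all regions in each pairing upon knock-down. The causes were not tested.

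For SOX17 at day 4 against 8 h, TMM gave 229 members higher and 116 lower and DESeq2 168 and 88, with 26 to 44 lower when 1 library was left out. For OCT4, DESeq2 gave 43 higher, and leaving out 1 library gave 39 to 69 higher and 18 to 44 lower. For GATA6 upon Oct4 knock-down, TMM gave 120 higher (19.0%, beside 14.4% of all regions) and 41 lower (6.51%, beside 11.8%), and leaving out 1 library 18 to 60 higher and 2 to 9 lower. For SOX17 upon Oct4 knock-down, TMM gave 70 and 70, DESeq2 31 lower, and leaving out 1 library 0 to 305 higher and 0 to 31 lower. In the GATA6 knock-down fits with 1 library left out, the shares called higher and lower fell over all regions too, so the drop was not particular to members. Where leaving out leaves a lone library, it is assumed to vary like the remaining groups of the fit. These are the other arm in the siRNA fits and the other resolved conditions of the target in the time-course fits. The median SOX17 change upon knock-down was 0.12 and 0.15 with the deeper Oct4 siRNA library set against each control (all regions 0.13 and 0.099) and 0.95 and 0.93 with the shallower (0.88 and 0.85).

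Depth limits weak regions most: at 8 h the median member was at 0.786 RPM of GATA6, and input was at 0.342 RPM. With 2 libraries per condition, a count of called members depends on each library.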
